A study of Mus musculus with 6 samples.

Results

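The 8 genes Clec4d, Clec4e, Clec4n, Clec7a, Clec4a1, Clec4a2, Clec4a3 and Clec12a encode C-type lectin receptors of myeloid cells. They were found by symbol among the 33696 features of the count tables, and all 8 were present. The set was selected on an earlier result of these data, in which Clec4d stood higher in the 2 libraries with a combination label than in their cyclophosphamide-labelled partners, so the Clec4d values of those comparisons are given as a description. The RNA came from live cells sorted for CD45, which marks leukocytes, out of mouse mammary tumours, and was counted in single cells captured in droplets. The series title names triple negative breast cancer, inhibition of MERTK (a kinase receptor with which macrophages sense dying cells) and cyclophosphamide, an alkylating drug. The 5 libraries analysed here carry the treatment labels MRX, CTX, Combined, ctxd18t and combod18t, with 1 library per label, and the library labelled VC was not analysed here. The labels do not spell these names out and give no strain, age or number of animals; the protocol, whose text is the same for all libraries, states that mice of day 7 received treatment 3 hours before harvest, and d18 in a label is read here as day 18.

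C-type lectin receptors bind sugars and lipids of microbes and material released by dying cells. Clec4e (Mincle), Clec4d (MCL) and Clec4n (Dectin-2) signal through the adaptor Fcer1g, and Clec7a (Dectin-1) carries its own signalling motif; all of them recruit the kinase Syk, which acts through Card9, Bcl10 and Malt1 to induce cytokines. Clec4a2 (DCIR) and Clec12a (MICL) carry inhibitory motifs that recruit phosphatases such as Ptpn6, and Clec4a1 and Clec4a3 are close relatives of Clec4a2. Clec4d, Clec4e and Clec4n are known from neutrophils and inflammatory monocytes, Clec7a from phagocytes and dendritic cells, and Clec12a from monocytes and several dendritic subsets.

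RefSeq promoter windows, from 250 bases before to 50 after the annotated start (build GRCm38.p6), were available for 7 of the 8 genes, all but Clec4n, and all lie on chromosome 6. The windows of 4 members are shown because their levels differ in pattern: Clec4d and Clec4e follow each other across cell classes, Clec7a has the largest ratio between the CTX and MRX libraries in monocyte-macrophage-like cells, and Clec12a is the member seen in plasmacytoid dendritic-like cells. Each is written from 5′ to 3′ in the direction of the gene, with matches on either strand to GAGGAA (the core bound by the myeloid factor PU.1) and to TTNNGNAA (bound by C/EBP factors) in capitals; overlapping matches run together.
Clec4d, chr6:123261857-123262156, plus strand: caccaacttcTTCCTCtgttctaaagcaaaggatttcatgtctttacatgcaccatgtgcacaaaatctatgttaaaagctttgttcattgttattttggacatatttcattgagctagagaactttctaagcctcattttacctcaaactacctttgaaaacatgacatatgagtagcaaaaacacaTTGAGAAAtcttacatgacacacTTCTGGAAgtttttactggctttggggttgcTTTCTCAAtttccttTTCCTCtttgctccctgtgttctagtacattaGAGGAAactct
Clec4e, chr6:123289822-123290121, minus strand: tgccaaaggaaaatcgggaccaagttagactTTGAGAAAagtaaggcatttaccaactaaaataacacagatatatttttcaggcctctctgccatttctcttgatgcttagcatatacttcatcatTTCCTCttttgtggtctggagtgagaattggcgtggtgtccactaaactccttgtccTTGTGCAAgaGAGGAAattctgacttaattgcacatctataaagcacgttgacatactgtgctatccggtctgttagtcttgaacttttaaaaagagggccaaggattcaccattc
Clec7a, chr6:129472736-129473035, minus strand: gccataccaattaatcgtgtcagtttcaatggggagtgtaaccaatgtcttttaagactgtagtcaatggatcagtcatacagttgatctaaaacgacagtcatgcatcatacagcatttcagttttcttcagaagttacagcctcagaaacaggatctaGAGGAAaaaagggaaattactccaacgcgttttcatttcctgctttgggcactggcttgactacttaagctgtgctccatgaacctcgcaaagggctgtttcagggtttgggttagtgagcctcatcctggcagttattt
Clec12a, chr6:129349994-129350293, plus strand: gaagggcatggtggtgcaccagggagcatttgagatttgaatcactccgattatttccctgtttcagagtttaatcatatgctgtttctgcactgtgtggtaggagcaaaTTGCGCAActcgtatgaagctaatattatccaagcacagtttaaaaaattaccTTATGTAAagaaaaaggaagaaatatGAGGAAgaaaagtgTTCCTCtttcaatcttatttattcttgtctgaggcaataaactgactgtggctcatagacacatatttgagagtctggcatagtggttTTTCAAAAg
The Clec4d window held 3 matches to GAGGAA and 3 to TTNNGNAA, the Clec4e window 2 and 2, and the Clec7a window 1 and 0. The Clec12a window held 2 matches to GAGGAA and 4 to TTNNGNAA, of which 2 are the same 8 bases read on both strands. Over 32851 promoter windows of this length in the table, 28.3% held GAGGAA and 40.7% held TTNNGNAA. The 7 members with an entry had 9 windows, Clec7a and Clec4a3 having 2 each. The former stood in at least 1 window of 6 members, in only 1 of the 2 of Clec4a3, and the latter in those of 4 members; these counts are per member and the shares per window. TGANTCA (AP-1) stood in the windows of 2 members, Clec4a2 and Clec12a, against 7.81% of all windows, and TTCNNNGAA (STAT) in that of Clec4a2 alone, against 8.30%. These are matches of letters and no evidence of binding.

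After filtering, 25653 cells were kept, from 3845 to 8506 per library with a median of 6239 to 8940 UMIs (unique molecular identifiers, 1 per captured transcript), from library totals of 39820290 to 100733879 UMIs. The monocyte-macrophage-like class comprised clusters 0 (led by C1qa, Ms4a7 and Trem2), 1 (Ly6i, Inhba, Lpl, Cxcl9), 7 (Vcan, F13a1), 16 (Rsad2, Ifit2) and 25 (Fcna, Cd5l), and cluster 22, whose levels are not described. It held 1377 cells in MRX, 4299 in CTX and 1171 in Combined, with 760 in ctxd18t and 226 in combod18t. The 10 leading genes of cluster 1 include Flt1, a gene of the endothelial list, and none of the list for its own class, although all 19 genes of that list were detected in it; values are therefore also given cluster by cluster and for the class without cluster 1. Clusters with markers of a pair of classes at high UMI counts (12, 19 and the dendritic cluster D1) were left out of the classes, and they held between 1.3% and 36.7% of the UMIs of a member in a library. Bases 8 and 9 of the cell barcodes were fixed within each library, which marks the sample's barcode set on the chip. The set of ctxd18t was that of Combined (21 barcodes shared) and the set of combod18t was that of CTX (34 shared), while all other pairs of libraries shared 0 barcodes. The protocol assigns sets to samples for the run of 4 libraries, and the assignment in the day 18 run is not given in the sources used here. If the day 18 labels were exchanged, every ratio of combod18t against ctxd18t would change sign. With 1 library per group no difference has a replicate check and no p-value is given; all intervals are 95% intervals of counting error alone, and several of the members are close relatives among which a read could be misassigned.

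The 8 lectins fell into 4 patterns across cell classes. Clec4d and Clec4e were highest in neutrophil-like cells, lower by about an order of magnitude in monocyte-macrophage-like cells, low in dendritic cells of type 2 (cDC2-like) and near background in plasmacytoid dendritic-like (pDC-like) cells. Clec4n and Clec7a were well above background in neutrophil-like, monocyte-macrophage-like and cDC2-like cells, and in pDC-like cells Clec7a was at 0.99 to 14.5 CPM and Clec4n at no more than 4.77. Clec4a1, Clec4a2 and Clec4a3 were highest in monocyte-macrophage-like cells, and Clec12a was the only member above 15 CPM in pDC-like cells. CPM is the number of UMIs of a gene per 1000000 UMIs, both added up within 1 class of 1 library. The background was read from the B-like cluster 2, in which the highest value of any member in any library was 8.55 CPM. Other lymphocyte classes reached higher values: Clec7a was at 14.8 CPM in T-like cells of ctxd18t and at 25.2 in all B-like cells of combod18t, where Clec12a was at 16.6. Of these B-like cells, cluster 2 had 0.61 CPM of Clec7a and the 62 cells of cluster 18, whose leading genes hold a plasma cell marker and no B cell marker, had 57.1. The highest Clec7a level of pDC-like cells, 14.5 CPM in combod18t, was no higher than in these T-like cells of ctxd18t. Within a library the order went both ways. Clec7a was somewhat higher in pDC-like than in T-like cells in MRX, Combined and combod18t, and lower in CTX and ctxd18t.

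**Figure D1:**
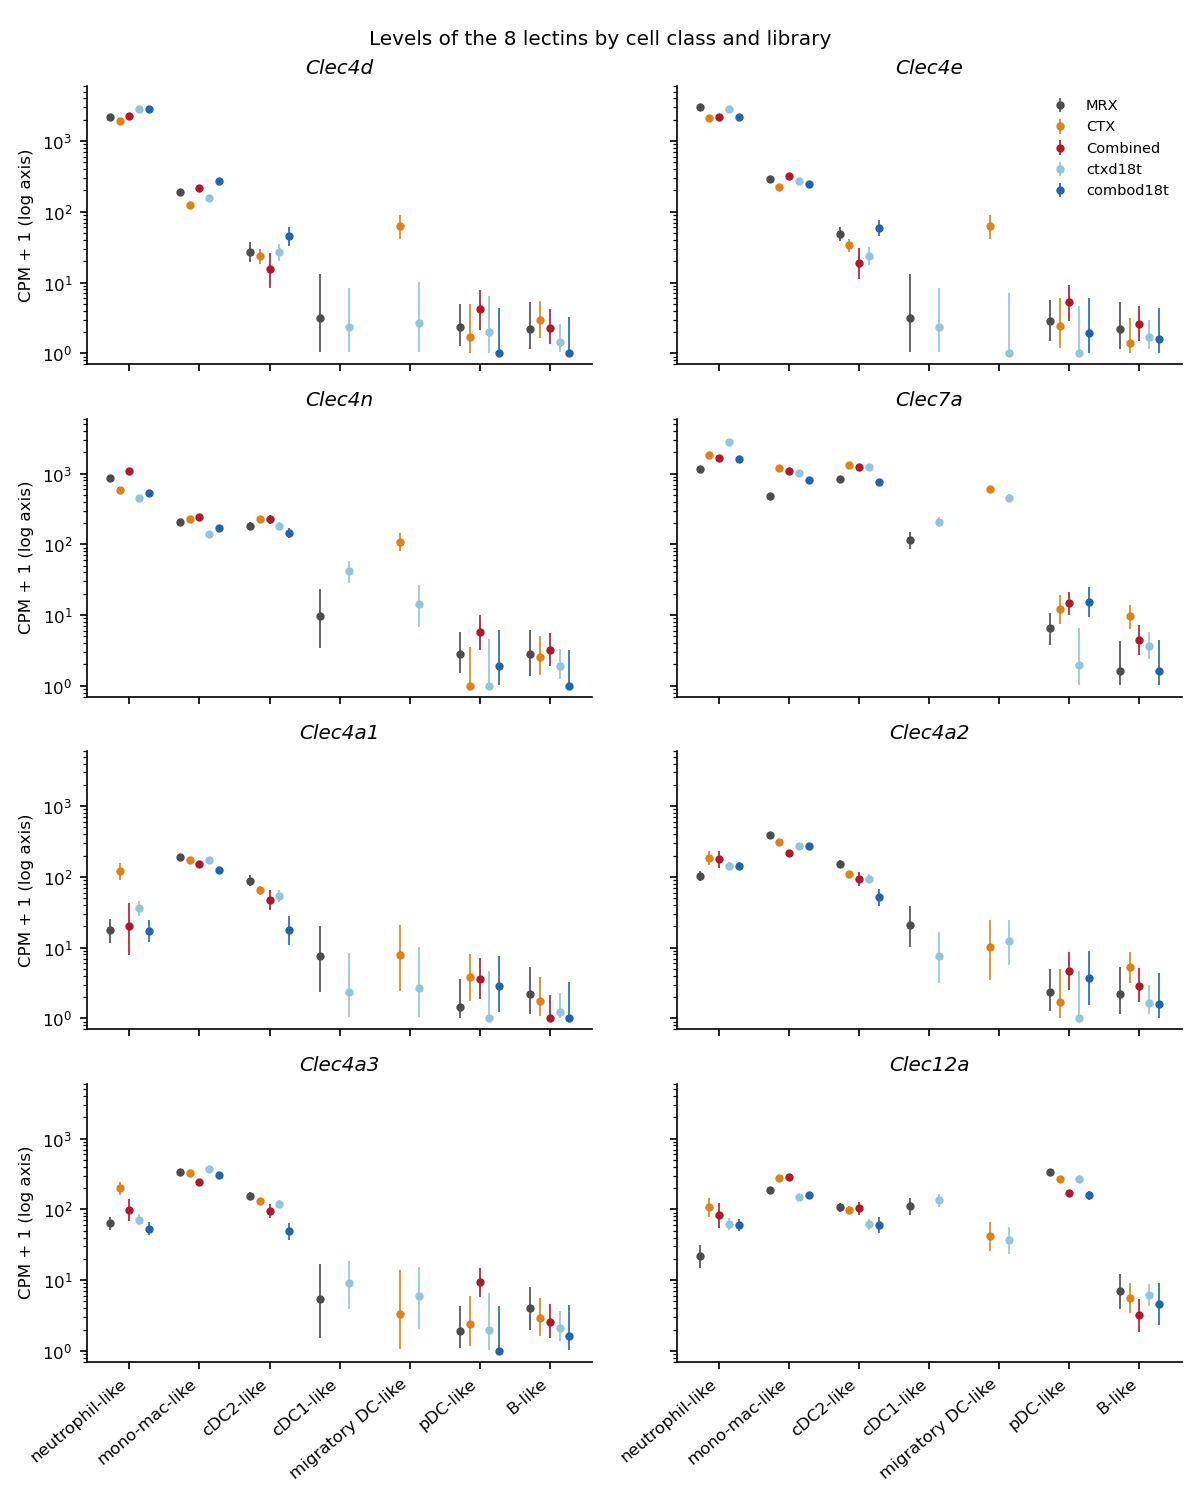
Levels of the 8 lectins (CPM + 1, log axis) in neutrophil-like, monocyte-macrophage-like (mono-mac), dendritic (cDC2, cDC1, migratory, pDC) and B-like cells (cluster 2); each point is 1 library, bars are 95% Poisson intervals, and a class with under 20 cells in a library has no point. Clec4d and Clec4e lie between 1912 and 2986 CPM in neutrophil-like cells and reach at most 317 CPM elsewhere, and in pDC-like cells Clec12a lies between 158 and 333 CPM with the other members at 14.5 CPM or less.

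Clec4d, the MCL receptor, reached 2154 CPM in neutrophil-like cells of MRX, 1912 in CTX and 2293 in Combined, with 2873 in ctxd18t and 2812 in combod18t. Its level in monocyte-macrophage-like cells was 191 CPM in MRX, 124 in CTX and 216 in Combined, with 155 in ctxd18t and 269 in combod18t. The neutrophil-like values, from 1912 CPM in CTX to 2873 in ctxd18t, all lay far above every monocyte-macrophage-like value. cDC2-like cells had from 14.4 to 44 CPM and pDC-like cells at most 3.18. After thinning each cell to 1000 UMIs, a Clec4d UMI was seen in 75.6% to 86.6% of neutrophil-like cells and in 11.4% to 19.8% of monocyte-macrophage-like cells (without thinning, 93.4% to 97.0% and 52.2% to 68.2%). In the thinned B-like cluster 2 no cell of any library had a Clec4d UMI; with 195 to 625 cells per library this allows up to 1.54% of cells with a UMI in the smallest, taking 3 counts as the limit. The median UMI count was 2832 to 4260 in neutrophil-like cells, 8107 to 13220 in monocyte-macrophage-like cells and 3978 to 7454 in cluster 2.

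The class that held most Clec4d transcripts differed between libraries. Neutrophil-like cells held 55.6% of all Clec4d UMIs in MRX, 9.7% in CTX and 16.3% in Combined, with 67.0% in ctxd18t and 77.6% in combod18t. They made up 8.88% of the kept cells in MRX, 1.07% in CTX and 1.80% in Combined, with 8.79% in ctxd18t and 7.59% in combod18t. Of the Clec4d UMIs of CTX 78.0% lay in monocyte-macrophage-like cells, and of those of combod18t 13.6%.

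Clec4e, the Mincle receptor, was at 2986 CPM in neutrophil-like cells of MRX, 2119.6 in CTX and 2198 in Combined, with 2802 in ctxd18t and 2173 in combod18t. Its monocyte-macrophage-like levels were 286 CPM in MRX, 226 in CTX and 317 in Combined, with 272 in ctxd18t and 249 in combod18t. MRX and ctxd18t were the highest neutrophil-like libraries, and the monocyte-macrophage-like libraries lay close together. In cDC2-like cells Clec4e was at 17.9 to 58 CPM.

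Clec4n (Dectin-2) had its highest levels in neutrophil-like cells as well, at 853 CPM in MRX, 576 in CTX and 1094 in Combined, with 453 in ctxd18t and 539 in combod18t. Monocyte-macrophage-like cells, at 141 to 242 CPM, and cDC2-like cells, at 143 to 229 CPM, overlapped in range. Clec7a, the beta-glucan receptor Dectin-1, was at 1149 CPM in neutrophil-like cells of MRX, 1807 in CTX and 1670.0 in Combined, with 2767 in ctxd18t and 1629.6 in combod18t. In cDC2-like cells it was at 847 CPM in MRX, 1316 in CTX and 1241 in Combined, with 1246 in ctxd18t and 753 in combod18t. These cDC2-like values exceed the monocyte-macrophage-like values of the same libraries (485, 1186, 1084, 1024 and 799.7 CPM in the same order) in all libraries but combod18t. Clec7a was also seen in migratory dendritic-like cells, at 597 CPM in CTX and 449.9 in ctxd18t, and in cDC1-like cells at 114 CPM in MRX and 204 in ctxd18t, the libraries with at least 20 such cells.

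The Clec4a genes were genes of the monocyte-macrophage-like class. Clec4a2, an inhibitory receptor, was at 389 CPM in MRX, 308 in CTX and 219 in Combined, with 273 in ctxd18t and 267 in combod18t, against 51 to 152 CPM in cDC2-like cells. Clec4a3 was at 338 CPM in MRX, 325 in CTX and 245 in Combined, with 368 in ctxd18t and 307 in combod18t. Clec4a1 was at 187, 172, 153, 175 and 123 CPM in the same order of libraries. Combined was the lowest library for Clec4a2 and Clec4a3 and combod18t for Clec4a1. In neutrophil-like cells Clec4a1 was at 16.4 to 35.2 CPM in 4 libraries and at 119.7 CPM in CTX.

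Clec12a, an inhibitory receptor, was at 186 CPM in monocyte-macrophage-like cells of MRX, 279 in CTX and 289.6 in Combined, with 150.2 in ctxd18t and 161 in combod18t. In pDC-like cells it was at 333 CPM in MRX, 272 in CTX and 167 in Combined, with 268 in ctxd18t and 158 in combod18t. Combined and combod18t were the 2 lowest libraries. The other members reached at most 14.5 CPM in pDC-like cells. The log2 ratio of Clec12a in pDC-like cells was -0.69 (interval -0.92 to -0.48) for Combined against CTX and -0.76 (-1.05 to -0.48) for combod18t against ctxd18t, both past 1.5-fold lower. Of 5187 expressed genes of this class 7.13% were past that fold higher and 3.18% lower in the first pair, and of 4204 genes 8.63% and 6.49% in the second. The pDC-like class held 163 cells in CTX and 167 in Combined, with 74 in ctxd18t and 57 in combod18t. Their 8 pDC markers summed to 13433 CPM in CTX and 10396 in Combined, and to 11589 in ctxd18t and 7839 in combod18t, and so were also lower in both combination-labelled libraries. The 10 T cell markers there summed to 795 and 1359 CPM in the first pair and 1399 and 1805 in the second, and the part of either list in the Clec12a ratios was not tested. In cDC1-like cells Clec12a was at 109.7 CPM in MRX and 133 in ctxd18t, with Clec7a the only members above 41 CPM there.

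Within the monocyte-macrophage-like class the members were spread unevenly over its clusters. Clec4d was lowest in the C1q-high cluster 0, at 84.2 CPM in MRX, 72.9 in CTX and 102 in Combined, with 87.2 in ctxd18t and 99.2 in combod18t. It was highest of the larger clusters in the Vcan-high cluster 7, a state led by genes of blood-type monocytes, at 299 CPM in MRX, 262 in CTX and 374 in Combined, with 284 in ctxd18t and 467 in combod18t. Cluster 1 held 142 CPM in CTX and 221 in Combined, and the interferon-gene cluster 16 held 137 and 201.

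Clec4e was also lowest in cluster 0, at 90.8 to 116 CPM, and highest in cluster 7, at 416 to 528 CPM, and these ranges over libraries did not overlap. Clec7a was higher in cluster 1 than in clusters 0, 7 and 16 in every library with at least 20 such cells, at 929.9 CPM in MRX, 1448 in CTX, 1206 in Combined and 1923 in ctxd18t. In cluster 0 Clec7a was at 489.7 CPM in MRX, 1035 in CTX and 1019 in Combined, with 922 in ctxd18t and 803 in combod18t. Clec4n overlapped between clusters, with 129 to 258 CPM in cluster 0 and 142 to 298 in cluster 7. Clec4a3 was at 218 to 352 CPM in cluster 0 and 317 to 463 in cluster 7. Clec4a2 overlapped between those clusters, at 260.1 to 423 and 258 to 397 CPM.

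**Figure D2:**
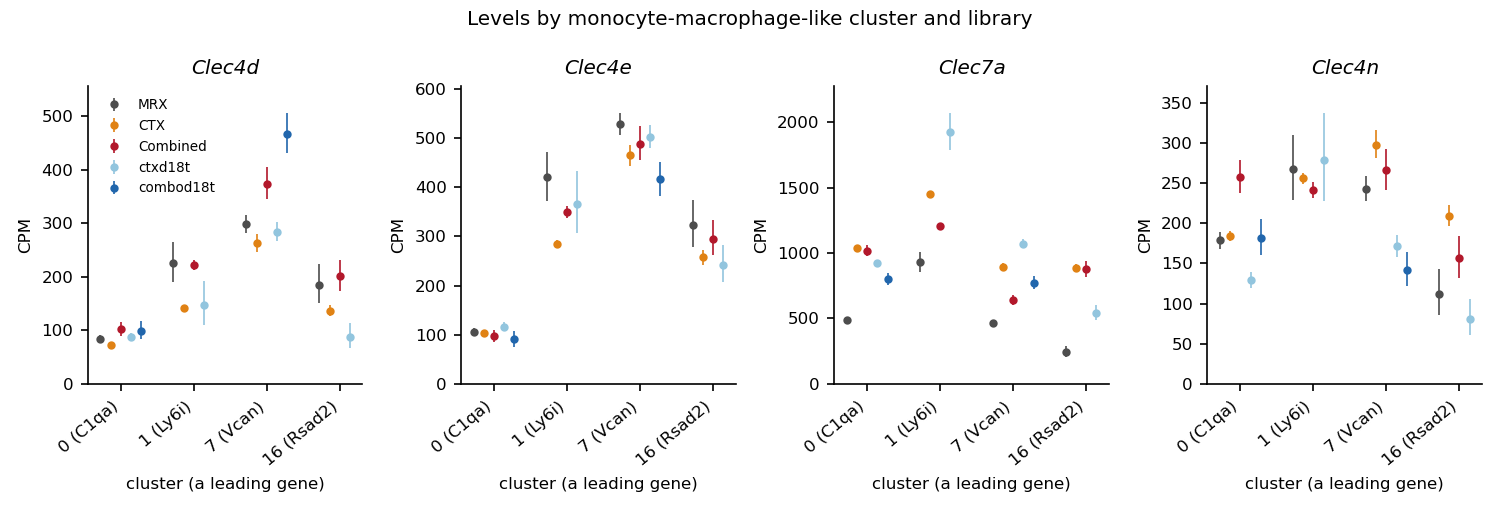
Levels (CPM) of Clec4d, Clec4e, Clec7a and Clec4n in 4 monocyte-macrophage-like clusters, each named with a leading gene; points are libraries, bars are 95% Poisson intervals, and clusters with under 20 cells in a library have no point. Clec4e is lowest in cluster 0 in all 5 libraries, and Clec7a in MRX lies below every other library in clusters 0, 1, 7 and 16.

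The mix of these clusters differed between libraries. Cluster 1 made up 46.2% of monocyte-macrophage-like cells in CTX and 61.5% in Combined, against 5.81% in MRX, 3.82% in ctxd18t and 4.87% in combod18t. Cluster 0 made up 52.3% in MRX, 35.4% in CTX and 19% in Combined, with 43.9% in ctxd18t and 51.8% in combod18t. Cluster 7, the highest of these in Clec4d and Clec4e, made up 33.6% in MRX, 9.79% in CTX and 14.0% in Combined, with 33.3% in ctxd18t and 39.8% in combod18t. Cluster 22 made up 12.2% of ctxd18t and 0.885% of combod18t. The ratio of each of the 8 lectins was therefore also computed with equal cluster weights in both libraries, over the clusters with enough cells in both. These were clusters 0, 1, 7 and 16 for Combined against CTX and against MRX, the same with cluster 22 for CTX against MRX, and clusters 0 and 7 alone for the day 18 pair.

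For Combined against CTX the design asks what the combination label adds to the CTX label. Clec4d was at 216 CPM (208 to 223) in Combined and 124 (121 to 127) in CTX, a log2 ratio of 0.79 (0.73 to 0.86) on the CPM + 1 scale, which is the value the choice of genes used. Among the 7 other members no ratio reached 1.5-fold, the size used for all calls here. Clec4e was higher by 0.49 (0.44 to 0.54), and Clec4a2 and Clec4a3 were lower, at -0.49 (-0.55 to -0.44) and -0.41 (-0.46 to -0.36). Clec4n at 0.07, Clec12a at 0.05, Clec7a at -0.13 and Clec4a1 at -0.17 were closer to 0. Of 5939 expressed genes of the class, 0.926% were past 1.5-fold higher and 2.17% past 1.5-fold lower, and the middle 90% lay between -0.39 and 0.38. The median over all 8 members was -0.04, against 0.07 over those genes.

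Without cluster 1 the Clec4d ratio was 0.89, that of Clec4e 0.52 and that of Clec4n 0.22. Clec4d was then the 1 member past 1.5-fold, and the share of all genes past it was not computed for this set of cells. With equal cluster weights the Clec4d ratio was 0.59 and that of Clec4e 0.21, while Clec4a2 and Clec4a3 stayed at -0.43 and -0.44. In single clusters the Clec4d ratio was 0.48 (0.29 to 0.68) in cluster 0, 0.64 (0.56 to 0.72) in cluster 1, 0.51 (0.36 to 0.66) in cluster 7 and 0.55 (0.31 to 0.79) in cluster 16. Clec4e was at -0.09 in cluster 0, 0.29 in cluster 1, 0.07 in cluster 7 and 0.20 in cluster 16. Clec4n went both ways, with 0.48 (0.36 to 0.61) in cluster 0 and -0.42 (-0.68 to -0.17) in cluster 16. Clec4a3 was lower in Combined in all 4 clusters, from -0.64 to -0.36. The 10 neutrophil markers summed to 368 CPM in monocyte-macrophage-like cells of CTX and 321 in Combined, with Mmp9 at 0 in Combined. Among them Csf3r (68.4 and 72.3 CPM), Hdc (12.7 and 19) and Il1r2 (164 and 183) were higher in Combined and the other 7 lower, and their part in the Clec4d ratio was not tested.

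**Figure D3:**
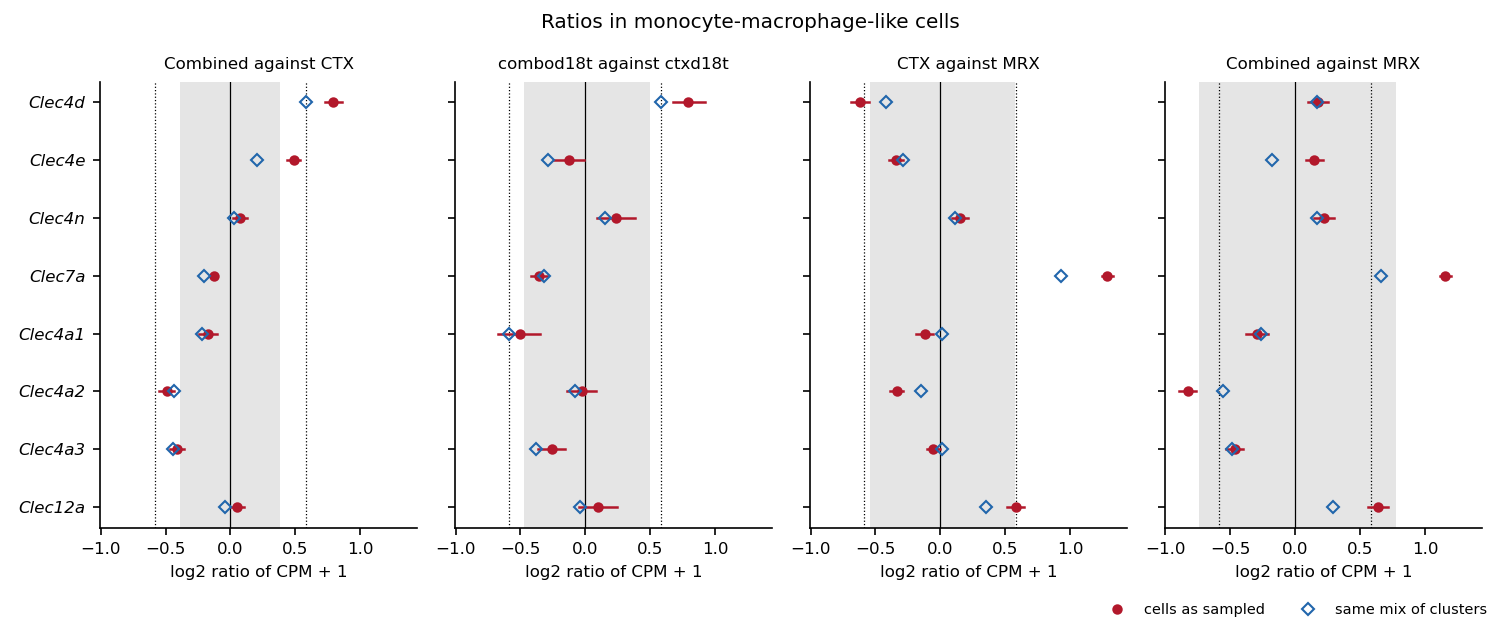
Log2 ratios of CPM + 1 of the 8 lectins in monocyte-macrophage-like cells for 4 comparisons; filled circles are the cells as sampled with 95% counting intervals, open diamonds have equal cluster weights in both libraries, grey bands hold the middle 90% of expressed genes and dotted lines mark 1.5-fold. For cells as sampled, Clec4d lies right of the band in the first pair of panels, which are the values the choice of genes used. Clec7a lies right of the band in the last pair, and with equal weights it lies inside the band for Combined against MRX, at 0.66.

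At day 18 the library labelled combod18t had 269 CPM (251 to 288) of Clec4d in monocyte-macrophage-like cells and the library labelled ctxd18t 155 (147 to 162), a log2 ratio of 0.79 (0.68 to 0.92), again a value the choice used. No other member was past 1.5-fold in these cells, but this depended on the cells and weights used, as given below. Clec4a1 was lower at -0.51 (-0.67 to -0.35), Clec7a at -0.36 (-0.42 to -0.29) and Clec4a3 at -0.26 (-0.36 to -0.16). Clec4n was at 0.24 (0.09 to 0.38), Clec12a at 0.10, Clec4a2 at -0.03 and Clec4e at -0.13 (-0.24 to -0.01). Of 6398 expressed genes 3.14% were past 1.5-fold higher and 3.41% lower, and the median of the 8 members was -0.08 against 0.04 for all genes. The Clec4d ratio was 0.18 (-0.09 to 0.46) in cluster 0 and 0.72 (0.57 to 0.87) in cluster 7, with 117 and 90 cells of combod18t. In cluster 0 Clec4a1 was the member past 1.5-fold, at -0.94 (-1.22 to -0.68), against -0.28 in cluster 7, and Clec4n was at 0.49 in cluster 0 and -0.27 in cluster 7. Of 6511 expressed genes of cluster 0, 5.04% were past 1.5-fold higher and 4.58% lower. In cluster 7 the shares of 5800 genes were 4.09% higher and 4.09% lower. Neutrophil markers summed to 966 CPM in ctxd18t and 1010.5 in combod18t, and in cluster 7 to 1853 and 1782; their part in the ratio was not tested.

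The day 18 Clec4d ratio was 0.81 without cluster 1. Over clusters 0 and 7 alone, each library with its own mix of the 2, it was 0.74, Clec4a1 was at -0.55 and Clec12a at -0.04, the last with the opposite sign to the whole class. With equal weights on these 2 clusters Clec4d was at 0.58, just under 1.5-fold, and Clec4a1 at -0.59, just past it, while Clec12a stayed at -0.04. The Clec4d ratio also depended on which other cells were counted: it was 0.16 with the mixed clusters 12 and 19 added, 0.19 with cells of at least 500 genes and 0.24 without removal of likely doublets, all within 1.5-fold. In these 3 settings the members past 1.5-fold were others, all lower in combod18t: Clec4e (-0.64 to -0.60), Clec7a (-0.79 to -0.76) and Clec4a1 (-0.90 to -0.87) in each, and Clec4a3 at -0.61 and -0.60 in the last pair of settings. The share of all genes past 1.5-fold was not computed in these 3 settings, so these calls have no background beside them. The settings with at least 500 genes and without doublet removal held 408 and 392 cells of combod18t in the class, and cluster 12 alone, which carries C1q genes with T-cell genes, held 144 cells of combod18t with 83.6 CPM of Clec4d and 142 of ctxd18t with 90.4.

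In neutrophil-like cells Clec4d was nearly level in both pairs, with log2 ratios of 0.26 (0.11 to 0.41) for Combined against CTX and -0.03 (-0.09 to 0.03) for combod18t against ctxd18t. For the first pair 1 member was past 1.5-fold higher, Clec4n at 0.92 (0.68 to 1.17), and 2 lower, Clec4a3 at -1.01 and Clec4a1 at -2.59, the last from 6 and 49 UMIs and under the filter on low counts, which 6 of the 8 members passed. The 19 monocyte-macrophage markers summed to 11233 CPM in these cells of CTX and 8508 in Combined, and their part in these ratios was not tested. The same class had 12.5% of 1256 expressed genes past that fold higher and 11.6% lower. For the day 18 pair none was higher and 2 were lower, Clec7a at -0.76 (-0.83 to -0.70) and Clec4a1 at -1.06 (-1.81 to -0.43, from 27 and 61 UMIs, also under the filter), beside 6.23% of 3821 genes higher and 4.21% lower. Clec4e was at 0.05 (-0.09 to 0.20) in the first pair and -0.37 (-0.43 to -0.30) in the second.

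In cDC2-like cells Clec7a was close to level for Combined against CTX, at -0.08 (-0.19 to 0.01), and lower for combod18t against ctxd18t, at -0.73 (-0.85 to -0.61). For Combined against CTX none of the 8 members was past 1.5-fold higher and 2 were lower, Clec4d at -0.62 (-1.68 to 0.25, from 12 and 64 UMIs, under the filter) and Clec4e at -0.82 (-1.75 to -0.06), beside 4.28% of 4957 expressed genes higher and 4.01% lower. For combod18t against ctxd18t 2 were higher, Clec4d at 0.75 (0.15 to 1.39, from 44 and 49 UMIs, under the filter) and Clec4e at 1.32 (0.76 to 1.96), and 4 lower, beside 6.31% of 4804 genes higher and 5.68% lower. The lower ones were Clec7a and the 3 Clec4a genes, at -0.86 for Clec4a2, -1.30 for Clec4a3 and -1.59 for Clec4a1, from 51, 48 and 17 UMIs in 43 cells. The 10 T-cell markers summed to 1346 CPM in cDC2-like cells of combod18t and 735 in ctxd18t, and their part in these ratios was not tested. Clec4n was at -0.03 in the first pair and -0.35 (-0.64 to -0.07) in the second.

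The comparisons with MRX share this library, and CTX and Combined each stand in 2 of the 4 comparisons, so their values are given side by side. Clec7a was at 485 CPM (473 to 498) in monocyte-macrophage-like cells of MRX, 1186 (1177 to 1196) in CTX and 1084 (1067 to 1101) in Combined. MRX was the lowest of all 5 libraries. The log2 ratio was 1.29 (1.25 to 1.33) for CTX against MRX and 1.16 (1.12 to 1.2) for Combined against MRX, with equal cluster weights 0.93 and 0.66, and 1.09 and 0.91 without cluster 1. In single clusters CTX against MRX gave 1.08 in cluster 0, 0.64 in cluster 1, 0.95 in cluster 7 and 1.86 in cluster 16, each past 1.5-fold. Of the expressed genes of these clusters 5.2%, 8.12%, 5.07% and 11.2% were past it higher, in the same order. The shares past it lower were 3.11%, 5.35%, 3.93% and 6.33%. In the same clusters Combined against MRX gave 1.06, 0.37, 0.46 and 1.85. Clec7a was higher in CTX than in MRX in neutrophil-like cells as well, at 0.65 (0.53 to 0.78), and in cDC2-like cells at 0.64 (0.54 to 0.73). In cDC2-like cells it was the 1 member past 1.5-fold for CTX against MRX, beside 7.93% of 5310 expressed genes higher and 6.61% lower. For Combined against MRX no member was past it higher there and 5 of 8 were lower, 3 of them among the 6 that passed the filter on low counts. The shares of 3714 genes were 11.5% higher and 9.53% lower.

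For CTX against MRX 1 member was past 1.5-fold higher, Clec7a, and 1 lower, Clec4d at -0.62 (-0.69 to -0.55). Of 5950 expressed genes 4.82% were past it higher and 4.34% lower. Clec12a was at 0.58 (0.52 to 0.65), just under 1.5-fold, and Clec4e and Clec4a2 were both at -0.34. Without cluster 1 Clec4e, at -0.64, was past 1.5-fold lower as well, Clec4d was at -0.77 and Clec12a at 0.42. The Clec4d ratio was -0.42 with equal cluster weights, and within clusters it was -0.21 in cluster 0, -0.67 in cluster 1, -0.19 in cluster 7 and -0.43 in cluster 16.

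For Combined against MRX 2 members were past 1.5-fold higher, Clec7a and Clec12a at 0.63 (0.56 to 0.71), and 1 lower, Clec4a2 at -0.83 (-0.89 to -0.76). The shares of 6068 expressed genes were 8.83% higher and 7.43% lower. Clec4d, at 0.18 (0.10 to 0.25), was close to level in this comparison, since Combined and MRX had 216 and 191 CPM. With equal cluster weights Clec12a was at 0.29 and Clec4a2 at -0.55, both within 1.5-fold. Without cluster 1 Clec12a was at 0.44, within 1.5-fold, Clec4a2 at -0.70 and Clec4e at -0.12, the last with the opposite sign to its 0.15 in the whole class.

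Neutrophil-like cells numbered 91 in CTX and 77 in Combined. For CTX against MRX 5 of the 8 members were past 1.5-fold higher and none lower, among 17.0% of 2756 expressed genes higher and 26.9% lower. They were Clec7a, Clec4a2 at 0.83, Clec4a3 at 1.65, Clec12a at 2.32 and Clec4a1 at 2.79, the last 2 from 44 and 49 UMIs in CTX and under the filter on low counts. For Combined against MRX 3 were higher, Clec4a2 at 0.78, Clec4a3 at 0.64 and Clec12a at 1.93 (26 and 29 UMIs, under the filter), and none lower, among 14.5% of 2660 genes higher and 20.0% lower. The 19 monocyte-macrophage markers summed to 11233 CPM in neutrophil-like cells of CTX and 8508 in Combined, against 2621 in MRX, 3884 in ctxd18t and 3962 in combod18t; their part in these ratios was not tested. The neutrophil marker S100a9 was at 18373 to 37590.4 CPM in every library, but others varied more: Retnlg was at 545 CPM in MRX, 178 in CTX and 171 in Combined, with 2574 in ctxd18t and 3763 in combod18t, and Il1r2 ran from 1240 in CTX to 3993 in MRX. Clec4e was lower than in MRX in both, at -0.49 (-0.60 to -0.39) in CTX and -0.44 (-0.56 to -0.33) in Combined.

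Over the whole monocyte-macrophage-like class a Clec4e transcript was seen more often in cells that had a Clec4d transcript than in cells without, and within single clusters this held less evenly. In monocyte-macrophage-like cells thinned to 1000 UMIs, a Clec4e UMI was seen in 38.2% (31.5 to 45.3) of MRX cells with a Clec4d UMI and in 19% (16.8 to 21.4) of those without. In CTX the shares were 28.2% (24.2 to 32.4) and 17.0% (15.8 to 18.2), and in Combined 33.3% (27.1 to 40) and 24.1% (21.4 to 26.9). At day 18 they were 40.7% and 18.6% in ctxd18t, and 31.8% and 15.2% in combod18t, where the intervals (18.6 to 47.6 and 10.2 to 21.3) overlap. The intervals did not overlap in the other 4 libraries. Within cluster 7 the shares were 48.1% and 37.6% in MRX and 33.7% and 31.6% in CTX, and the intervals overlapped in all 5 libraries. Within cluster 0 they did not overlap in CTX, at 17.6% (10.8 to 26.4) and 8.05% (6.68 to 9.59), or in ctxd18t, at 35.7% (12.8 to 64.9, 14 cells with a Clec4d UMI) and 7.99% (5.24 to 11.6). They overlapped in MRX, at 18.9% and 8.33%, and in combod18t, and in Combined the order was the other way, at 4.35% (0.11 to 21.9, 23 cells) and 8.59% (5.08 to 13.4). Within cluster 1 they did not overlap in CTX, at 29.7% (24.0 to 35.8) and 21.3% (19.4 to 23.3), but did in Combined, at 36.2% (28.3 to 44.7) and 27.8% (24.2 to 31.6), and in MRX and ctxd18t. Clec4a1, a member of another pattern, was seen in 11.4% to 23.1% of cells with a Clec4d UMI and 10.1% to 17.0% without, with overlapping intervals in each library.

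**Figure D4:**
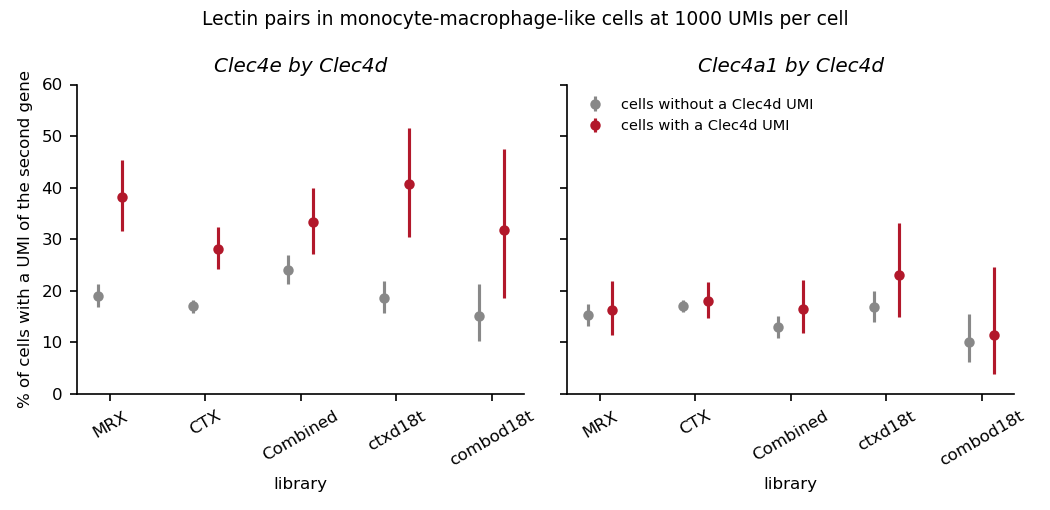
Percent of monocyte-macrophage-like cells with a Clec4e UMI (left) or a Clec4a1 UMI (right) among cells with and without a Clec4d UMI, per library, after thinning to 1000 UMIs per cell; bars are 95% exact binomial intervals. The Clec4e share is higher in cells with a Clec4d UMI in all 5 libraries, and the intervals of the Clec4a1 shares overlap in each.

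Across 39 sums of a class in a library with at least 50 cells, which share libraries and depth, the genes most like each member were found by Pearson correlation of log2(CPM + 1) over 7882 genes. Clec4d was most like Trem3 (r = 0.99), Csf3r (0.99), the receptor of a neutrophil growth factor, and Clec4e (0.98). Clec4e had Clec4d (0.98), Csf3r (0.98) and Trem3 (0.98). Clec4n and Clec7a both had Il1b (0.98), which encodes interleukin-1 beta, and Bcl2a1a (0.97) as the nearest genes, followed by Mefv (0.97) and Clec4n (0.97). Clec4a1 had Clec4a3 (0.97), the scavenger receptor gene Msr1 (0.96) and Clec4a2 (0.96). Clec4a2 had Tgfbi (0.98), Csf1r (0.98), the receptor of the macrophage growth factor, and Fcgr4 (0.97), and Clec4a3 had Clec4a2 (0.97), Fcgr1 (0.97) and Clec4a1 (0.97). Clec12a stood apart, with Psap (0.95), Cd68 (0.95) and Mpeg1 (0.93) as the nearest genes and correlations of 0.44 to 0.62 with the other members.

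The signalling genes of these receptors were counted in the same way. Of 13 adaptor and kinase genes, all expressed in monocyte-macrophage-like cells, none was past 1.5-fold in either direction for Combined against CTX or for combod18t against ctxd18t, where 0.926% and 3.14% of all expressed genes were past it higher and 2.17% and 3.41% lower. Fcer1g was at 2552 CPM in CTX and 2222 in Combined, a log2 ratio of -0.20, and at -0.42 in the day 18 pair. Syk was at 0.15 and 0.24 in these pairs and Card9 at 0.25 and 0.23. Of 3 inhibitory phosphatase genes none was past 1.5-fold, with Ptpn6 at 0.24 and 0.16. For CTX against MRX 1 of the 13 was past it, Malt1 at 1.04, higher, and for Combined against MRX 2, Malt1 at 1.43 and Prkcd at 0.69, both named after their values were seen, beside 4.82% and 8.83% of all genes higher and 4.34% and 7.43% lower. The phosphatase Ptpn6 was at 0.72 for Combined against MRX, the 1 of 3 past it. With equal cluster weights Malt1 was at 0.61 and 0.84 in these comparisons, and Prkcd at 0.48 and Ptpn6 at 0.58 in the latter were within 1.5-fold.

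Of 21 other C-type lectin genes 8 were expressed in monocyte-macrophage-like cells. For Combined against CTX none was past 1.5-fold higher (0.926% of all genes) and 3 were lower (2.17%): Clec4b1 at -1.36, the mannose receptor Mrc1 at -0.85 and Clec2d at -0.65, the last 2 named after their values were seen. Cd207 (langerin), below the filter on low counts, was at 0.14 CPM in Combined (2 UMIs) and 1.9 in CTX (96 UMIs). For combod18t against ctxd18t 1 of 8 was past it higher (3.14% of all genes), Colec12 at 0.59, and 2 lower (3.41%), Mrc1 at -1.77 and Clec4b1 at -0.78. With equal cluster weights Clec4b1 was at -1.2 in the first pair, Mrc1 at -0.49 and Clec2d at -0.52, the last 2 within 1.5-fold, and in the second pair Colec12, Mrc1 and Clec4b1 were at 0.63, -1.03 and -0.83. Cd209a, also below the filter, was at 0.33 CPM in combod18t (1 UMI) and 6.92 in ctxd18t (80 UMIs). Mrc1 was at 218 CPM in CTX and 120.5 in Combined, with 882 in ctxd18t and 257 in combod18t. Against MRX, 2 of 8 were past 1.5-fold higher and 2 lower in CTX (4.82% and 4.34% of all genes), and 2 higher and 4 lower in Combined (8.83% and 7.43%).

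Of 15 genes known to be induced through these receptors 9 were expressed in monocyte-macrophage-like cells for Combined against CTX, none of them past 1.5-fold higher (0.926% of all genes) and 2 lower (2.17%), the chemokine genes Ccl4 at -0.99 and Cxcl1 at -0.80. For combod18t against ctxd18t none of 10 was higher (3.14% of all genes) and 6 were lower (3.41%): Nos2, which encodes inducible nitric oxide synthase, at -2.73, Ccl4 at -1.42, Egr2 at -1.34, Cxcl1 at -1.23, Ccl3 at -1.19 and Il1b at -0.61. The median over the 10 was -0.90, against 0.04 over all expressed genes. Nos2 rested on 9 UMIs in combod18t and 293 in ctxd18t. With equal weights on clusters 0 and 7, which leaves out cluster 22, the 6 stayed lower, with Nos2 at -1.99, Egr2 at -1.30, Ccl4 at -0.90, Il1b at -0.74, Ccl3 at -0.69 and Cxcl1 at -0.57, the last within 1.5-fold. Against MRX, 8 of the 15 were expressed, with 1 past 1.5-fold higher and 3 lower in CTX (4.82% and 4.34% of all genes), and 1 higher and 4 lower in Combined (8.83% and 7.43%). In neutrophil-like cells 2 of 8 were higher and 1 lower for Combined against CTX (12.5% and 11.6% of all genes), where Cxcl1 was at 1.5 and Ccl4 at -0.94. For the day 18 pair 2 of 12 were higher and 1 lower there (6.23% and 4.21%), with Cxcl1 at 0.96, Il23a at 1.76 and Nos2 at -1.04.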

How the data were processed

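The values, as deposited, are raw UMI counts for each gene in each barcode of 10x 3′ libraries with on-chip multiplexing, made with Cell Ranger 9.0.1 per the file headers and the labels' protocols; the submitters' processing notes also name Seurat 5.2.0 and GRCm39. The 5 libraries held 4085 to 9064 barcodes. Cells with at least 200 genes and at most 15% mitochondrial counts were kept, and because the Scrublet threshold marked under 0.5% of cells, cells above the doublet score that bounds the top 5% of each library were removed (160 to 392 cells, 3.98% to 4.94%). Scanpy 1.11.5 clustered the cells without integration (2000 variable genes, 30 components, 15 neighbours, Leiden resolution 1; leidenalg 0.10.2) into 28 clusters, the dendritic ones after a split at resolution 0.2. Clusters were named from marker lists; the scoring, the rule for mixed clusters and the dendritic split were set after seeing the data, and names rebuilt here may differ from the authors'.

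Counts were summed per class and library to CPM with exact Poisson intervals. Ratios are log2 of CPM + 1, and their exact binomial intervals refer to the ratio without the added 1. A gene counted as expressed with at least 100 counts over a pair and 20 CPM in 1 library, and as past the fold at 1.5-fold. Shares of cells came from cells thinned to 1000 UMIs, with exact Clopper-Pearson intervals; a count of 0 allows up to 3 counts. All intervals and limits are at 95% and cover counting error only. The ratios and their intervals were tested on simulated Poisson counts with known folds, and the other steps were not tested in this way. The alternatives are given in the closing section; equal cluster weights for the gene lists were added after seeing the data. The levels of cluster 22, and the adaptor and kinase counts in neutrophil-like cells, are not reported here. Genes outside the 8 were named by a size rule, or as stated. Members, lists and rules were chosen with earlier results of these data known. Python 3.11.15, numpy 2.4.6, scipy 1.17.1 and pandas 2.3.3 were used.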

Additional observations from a re-analysis of the deposited data

Results flagged for a closer look

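Clec4e went opposite ways in the 2 comparisons of a combination-labelled with a CTX-labelled library. In monocyte-macrophage-like cells its log2 ratio was 0.487 for Combined against CTX and -0.1267 for combod18t against ctxd18t. In cDC2-like cells it was -0.8229 for Combined against CTX, from 15 and 92 UMIs, and 1.3173 for combod18t against ctxd18t, from 58 and 43 UMIs. With 1 library per group the difference between the comparisons was not tested, and both day 18 values would change sign if the day 18 labels were exchanged.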

How the results depend on the processing

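Over 9 alternatives (CPM + 10, median-of-ratios scaling, the mean of each cell's CPM, thinned cells, mixed clusters kept, Leiden resolution 2, at least 500 genes per cell, no doublet removal and the same mix of clusters in both libraries), 26 of 32 member ratios in monocyte-macrophage-like cells kept their sign, 7 of 8 for Combined against CTX and 6 of 8 for combod18t against ctxd18t. The Clec4d ratio ran from 0.59 to 0.85 in the former and from 0.16 to 1.06 in the latter; with the day 18 labels exchanged, an alternative added after seeing the data, the latter was -0.79. At a fold of 2 in place of 1.5, the members past the fold went from 1 to 0 for Combined against CTX, from 1 to 0 for combod18t against ctxd18t, from 2 to 1 for CTX against MRX and from 3 to 1 for Combined against MRX. For combod18t against ctxd18t there were 2 with thinned cells and 2 when CPM was averaged over cells (Clec4d higher, Clec4a1 lower). There were 3 with mixed clusters kept, 4 with at least 500 genes and 4 without doublet removal, all lower and none of them Clec4d; these were Clec4e, Clec7a and Clec4a1, with Clec4a3 in the last pair. With the same mix, which here also kept clusters 0 and 7 only, the count stayed at 1, but this was Clec4a1 (-0.59) and Clec4d was at 0.58; over these clusters with each library's own mix they were at -0.55 and 0.74. For CTX against MRX there was 1 with CPM + 10 and 1 with the same mix, and for Combined against MRX 1 with the same mix; the causes were not tested. Without cluster 1, also added after seeing the data, 1, 1, 3 and 2 members were past 1.5-fold in the 4 comparisons in the order above. Clec4d was the one higher in the first pair of comparisons. Clec7a was higher with Clec4d and Clec4e lower for CTX against MRX, and higher with Clec4a2 lower for Combined against MRX. The share of all genes past the fold was not computed for any of these settings, the fold of 2 included, so their counts have no background beside them. Without the filter on low counts the share of genes past 1.5-fold moved from 3.14% to 7.39% higher and 3.41% to 6.59% lower for the day 18 pair, from 4.82% to 2.94% higher for CTX against MRX and from 8.83% to 5.71% higher for Combined against MRX. No paired analysis was possible because each group has 1 library, and for the same reason no replicate could be left out. Depth limits the values from few cells: the cDC2-like class of combod18t held 43 cells and the neutrophil-like class of Combined 77.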
